A study of Homo sapiens with 18 samples.

Results

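TXNIP, ARRDC2, ARRDC3 and ARRDC4 belong to the alpha-arrestin family, and PDK4 encodes a pyruvate dehydrogenase kinase. These 5 genes were followed across the 6 conditions of an RNA-seq experiment in MDA-MB-231 cells, a triple negative breast cancer line. They were taken, by symbol, from the 57448 genes of the deposited count table. The choice was made because TXNIP and PDK4 were lower in the GPS2 knockout pools than in the parental cells, so the knockout against parental values are given as a description without a test. All 5 genes passed the filter on low counts, which left 15587 genes for testing.

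Alpha-arrestins are adaptors that bring ubiquitin ligases of the NEDD4 family to membrane proteins, which are then internalised. TXNIP and ARRDC4 limit glucose uptake by promoting the removal of glucose transporters from the cell surface, and both genes are activated by the glucose-sensing factor MondoA (gene MLXIP) with its partner MLX. PDK4 phosphorylates and inactivates the pyruvate dehydrogenase complex, which keeps pyruvate out of the mitochondrial oxidation of glucose and favours fatty acid use. AKT stimulates glucose uptake, and it keeps FOXO transcription factors, which can activate TXNIP and PDK4, out of the nucleus.

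Parental, unmodified and untreated MDA-MB-231 cells are called WT. KO1 and KO2 are untreated GPS2 knockout cells made by CRISPR-Cas9 with sgRNA set 1 and sgRNA set 2, and each is a heterogeneous, drug-selected pool rather than a clone. GPS2 is a regulator of transcription and of ubiquitin signalling. The myrAKT cells are untreated MDA-MB-231 cells that received myristoylated AKT1 from a retroviral vector, a constitutively active form held at the membrane. KO1+MK and KO2+MK are the same knockout pools given 10 µM MK2206, an allosteric AKT inhibitor, for 4 h before collection. No MK2206-treated WT or myrAKT cells were analysed here. Each of the 6 groups had 3 libraries, and all 18 were grown in high-glucose medium with serum. The labels do not say that the 3 samples of a group were separate cultures, so p-values measure only the spread between these samples, which may be technical.

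Counted reads ranged from 23419198 to 39319910 per library, and the 6 MK2206-treated libraries held the 6 lowest totals. VIM and CD44, which mark these mesenchymal-like cells, were at 1294 CPM or more and 399.9 CPM or more in every library, whereas PGR and CDH1 had at most 5 counts and ESR1 at most 44. GPS2 RNA was not lower in the pools: its mean was 4.56 CPM in WT, 4.49 in KO1 and 6.02 in KO2, so the RNA level did not check the knockout labels. AKT1 was 1.71-fold higher in myrAKT than in WT (edgeR adjusted p = 4.64e-09), as its label states. CPM here is read counts scaled to library size with TMM factors.

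TXNIP, on chromosome 1 (hg38, 145992435 to 145996579, minus strand), encodes the thioredoxin-interacting protein, which binds and inhibits thioredoxin and promotes the endocytosis of the glucose transporter GLUT1. It had the most reads of the 5 genes in every group. Its level was 200.3, 168.7 and 216.8 CPM in the 3 WT libraries. In the knockout pools it was 51.6, 54.8 and 52.9 CPM in KO1 and 43.99, 41.0 and 44.2 CPM in KO2. Every knockout library was thus far below every WT library, at a group mean of 27.2% of WT in KO1 and 22.0% in KO2. In bulk RNA, fewer cells with the transcript and less of it per cell cannot be told apart, which holds for every gene here. The myrAKT libraries held 59.0, 100.4 and 75.9 CPM, the widest relative spread of any group for this gene. After MK2206 the values were 116.2, 115.7 and 107.7 CPM in KO1+MK and 98.5, 112.1 and 121.7 CPM in KO2+MK, between the untreated pools and WT. Ordered by group mean, TXNIP ran WT, KO1+MK, KO2+MK, myrAKT, KO1, KO2. The libraries of KO1+MK and KO2+MK overlapped, as did those of KO2+MK and myrAKT, while the other neighbours in this order did not overlap.

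The bases before the TXNIP start are shown because they hold the paired layout described below them, which no other window of the 5 genes held. The capitals mark, from left to right, a forkhead match on the opposite strand and a paired layout of E-box-like sites.
TXNIP, chr1:145996580-145996829, minus strand: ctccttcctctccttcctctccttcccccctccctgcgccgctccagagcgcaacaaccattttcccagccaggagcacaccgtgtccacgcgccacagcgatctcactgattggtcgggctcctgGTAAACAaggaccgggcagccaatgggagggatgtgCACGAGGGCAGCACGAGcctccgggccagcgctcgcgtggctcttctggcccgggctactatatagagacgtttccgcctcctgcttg
This is the RefSeq sequence of GRCh38.p14. The paired layout, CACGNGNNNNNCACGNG, is that of a carbohydrate response element, to which MondoA or ChREBP bind with MLX, and it lay 88 to 72 bases before the start. It was found on either strand in 20 of 35116 RefSeq promoter windows of 300 bases (0.0570%). The forkhead motif TGTTTAC, 124 to 118 bases before the start, occurred in 3.42% of windows. CCAAT occurred 2 times in the TXNIP window and in 34.6% of all windows. None of these matches overlapped another. A match says only that the letters are there.

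ARRDC4 (chromosome 15, 97960703 to 97973833, plus strand), the closest relative of TXNIP in its effect on glucose uptake, had 10.3, 9.09 and 11.1 CPM in the WT libraries. KO1 held 3.87, 4.37 and 3.84 CPM and KO2 held 3.63, 3.99 and 3.83 CPM, with both pools below every WT library and overlapping each other. The lowest values of all were in myrAKT, at 1.14, 1.82 and 1.58 CPM, which rest on 38 to 61 counts per library. MK2206-treated pools reached 7.39, 6.66 and 6.17 CPM in KO1+MK and 5.80, 6.43 and 6.41 CPM in KO2+MK. The order of means was WT, KO1+MK, KO2+MK, KO1, KO2, myrAKT, in which KO1+MK overlapped KO2+MK and KO1 overlapped KO2. ARRDC4 therefore differed from TXNIP in the place of myrAKT: below both knockout pools for ARRDC4 and above both for TXNIP, without overlap in either gene. These 2 orders are a description.

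The ARRDC4 sequence before its start is shown for the E-box in capitals, CACGTG, the core bound by basic helix-loop-helix factors such as MondoA and MLX.
ARRDC4, chr15:97960453-97960702, plus strand: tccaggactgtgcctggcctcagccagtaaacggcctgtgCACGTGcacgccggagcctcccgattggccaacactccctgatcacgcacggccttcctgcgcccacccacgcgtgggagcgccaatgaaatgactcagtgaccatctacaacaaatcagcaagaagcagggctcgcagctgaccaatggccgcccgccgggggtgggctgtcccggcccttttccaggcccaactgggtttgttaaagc
The E-box lay 210 to 205 bases before the start, and 7.26% of all windows held one. ARRDC4 also had 3 CCAAT matches in its window. The full paired layout found at TXNIP was not in this window.

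ARRDC3 (chromosome 5, 91368631 to 91383317, minus strand) is an adaptor known for promoting the degradation of integrin beta 4. It stood at 34.2, 39.1 and 41.2 CPM in WT. The knockout pools held 19.0, 19.0 and 17.6 CPM in KO1 and 20.1, 18.2 and 19.4 CPM in KO2, at 48.6% and 50.4% of the WT mean, with the pools overlapping. The myrAKT libraries lay between, at 25.9, 27.5 and 27.8 CPM. With MK2206, KO1+MK held 38.6, 38.3 and 38.5 CPM and KO2+MK 37.2, 45.8 and 49.6 CPM, and both groups overlapped WT. ARRDC3 was the only one of the 5 genes whose treated pools overlapped the parental level in both cases. Its antisense neighbour ARRDC3-AS1 shares 145 of the 4985 exon bases of ARRDC3 and had 11 to 31 counts per library, against a mean of 1005 for ARRDC3. A second RefSeq start of ARRDC3, inside the gene, had a forkhead match, in capitals, 29 to 23 bases before it.
ARRDC3, chr5:91380110-91380137, minus strand: agcccggcactTGTTTACcacggcgcgg
The window at the outermost start of ARRDC3 held a single CCAAT and none of the other motifs.

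ARRDC2 (chromosome 19, 18001132 to 18014102, plus strand), a less studied family member, moved least in the knockout pools. WT held 27.5, 29.0 and 27.7 CPM, KO1 21.9, 22.6 and 21.1 CPM, and KO2 22.1, 21.2 and 22.0 CPM. The pools were at 77.8% and 77.6% of the WT mean and did not overlap WT. In myrAKT the values were 35.4, 38.9 and 37.3 CPM, above every WT library. The treated pools were also above WT, at 38.6, 35.7 and 39.5 CPM in KO1+MK and 44.9, 47.6 and 52.6 CPM in KO2+MK. WT thus had the fourth highest mean of the 6 groups for ARRDC2, whereas it had the highest for TXNIP, ARRDC4 and PDK4.

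PDK4 (chromosome 7, 95583499 to 95596516, minus strand) had 9.51, 11.2 and 11.0 CPM in WT. In KO1 it held 2.10, 1.75 and 1.82 CPM, which rest on 65 to 80 counts, and KO2 held 3.31, 3.21 and 3.24 CPM. KO1 was at 17.9% of the WT mean and KO2 at 30.8%, the one gene of the 5 for which every KO1 library lay under every KO2 library. The myrAKT libraries, at 8.77, 10.2 and 8.84 CPM, overlapped WT. KO1+MK reached 5.11, 5.40 and 4.52 CPM and KO2+MK 7.08, 6.93 and 7.35 CPM. The order was WT, myrAKT, KO2+MK, KO1+MK, KO2, KO1, and no neighbours except WT and myrAKT overlapped.

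The PDK4 bases before the start are printed beside those of TXNIP. They hold no match to the searched forkhead, E-box or paired patterns, so nothing is in capitals. Only those fixed letters were searched, so other forms of these sites, or sites further away, would have been missed.
PDK4, chr7:95596517-95596766, minus strand: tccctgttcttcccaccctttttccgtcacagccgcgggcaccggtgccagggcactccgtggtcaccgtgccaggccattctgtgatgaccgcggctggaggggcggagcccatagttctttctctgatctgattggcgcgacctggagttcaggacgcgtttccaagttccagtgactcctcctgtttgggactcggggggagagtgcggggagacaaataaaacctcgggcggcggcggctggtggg
PDK4 had 1 CCAAT match on the opposite strand. PDK4-AS1, on the other strand, shares no exon base with PDK4 and had 0 to 3 counts per library.

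**Figure D1:**
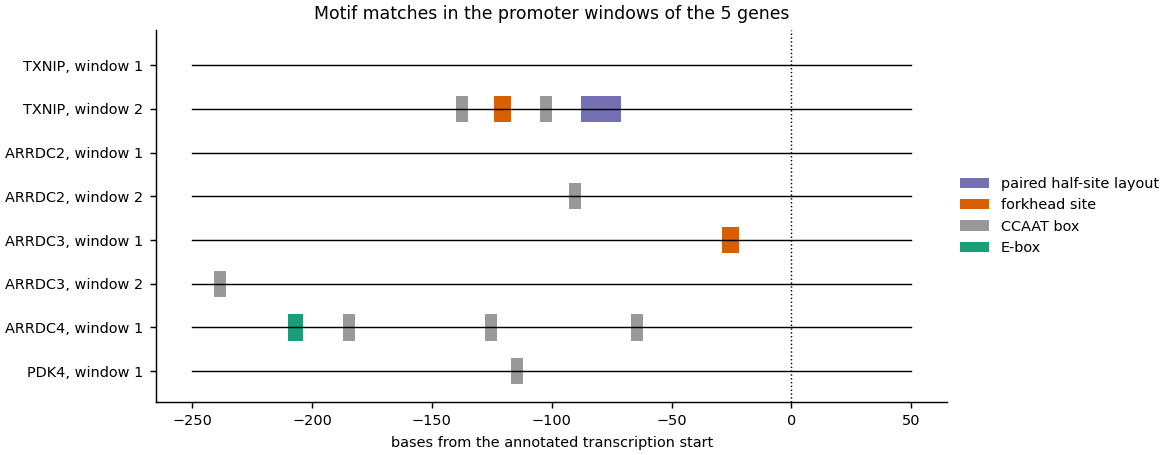
Positions of the searched motifs in the 8 RefSeq promoter windows of the 5 genes; the horizontal axis is the distance in bases from the annotated start (dotted line), each row is 1 window, and coloured boxes are matches on either strand. The TXNIP window with the paired layout also holds the forkhead match, the E-box is in ARRDC4, and PDK4 has only a CCAAT box.

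**Figure D2:**
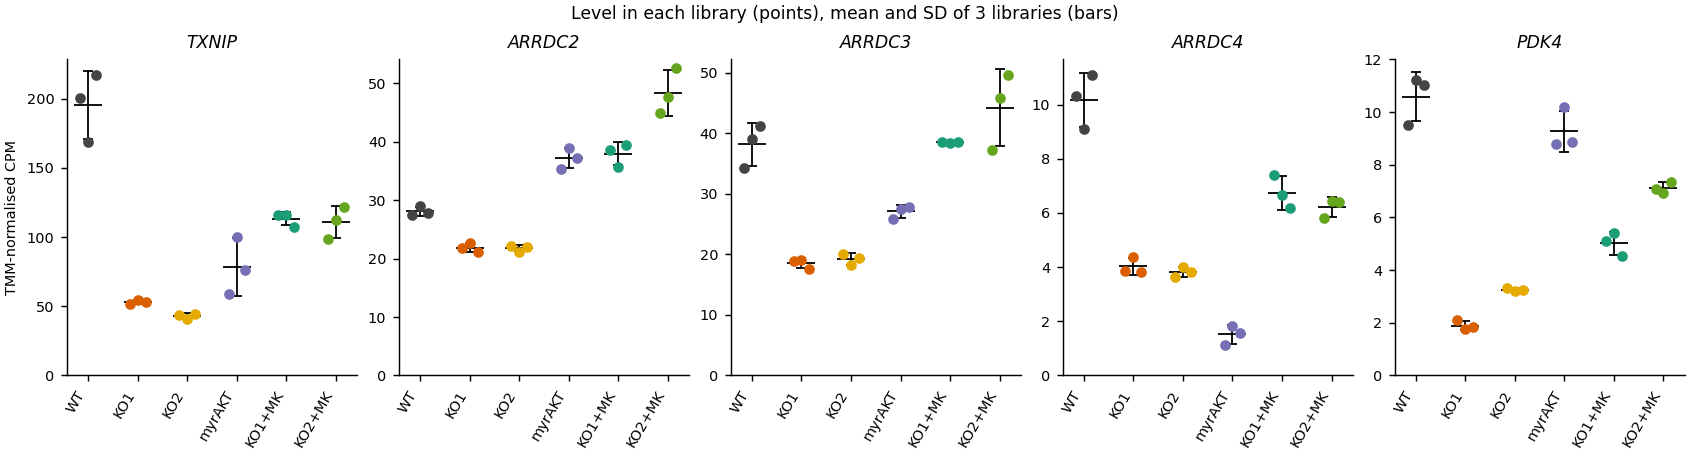
Level of each gene in CPM with TMM scaling (vertical axis, from 0, a scale of its own per gene) in the 18 libraries, grouped by condition on the horizontal axis; points are libraries and black bars the mean and SD of 3. TXNIP, ARRDC4 and PDK4 are highest in WT, ARRDC2 is highest in KO2+MK, and ARRDC4 is lowest in myrAKT.

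Per kilobase of exon, which allows levels of different genes to be compared, TXNIP was the most abundant of the 5 in WT at 54.2 ± 6.78 CPM per kb (SD, n = 3). ARRDC3 followed at 7.66 ± 0.71, then ARRDC2 at 6.05 ± 0.17, ARRDC4 at 2.50 ± 0.25 and PDK4 at 2.33 ± 0.21 CPM per kb. ARRDC4 and PDK4 were within their spread of each other. In WT, PDK4 was at a level similar to that of the pyruvate dehydrogenase kinases PDK1, at 2.50 ± 0.06, and PDK3, at 2.12 ± 0.20 CPM per kb. PDK2, at 3.60 ± 0.30 CPM per kb, was higher. In KO1 PDK4 was the lowest of the 4 kinases, at 0.42 ± 0.04 CPM per kb, and PDK3 was next at 1.51 ± 0.04.

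Measured as fold changes, TXNIP was 3.67-fold lower in KO1 and 4.54-fold lower in KO2 than in WT. PDK4 was 5.58-fold and 3.25-fold lower, ARRDC4 2.53-fold and 2.66-fold lower, ARRDC3 2.06-fold and 1.99-fold lower, and ARRDC2 1.28-fold and 1.29-fold lower. In both pools all 5 genes had every knockout library below every WT library, which was so for 33.4% of the tested genes in KO1 and 34.2% in KO2. Of the tested genes, 8.76% in KO1 and 11.1% in KO2 were called lower. A gene was called where its adjusted p did not exceed 0.001 and its level differed 1.5-fold or more. Since these contrasts chose the genes, nothing is read from their counts.

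The myrAKT line was compared with WT to ask what constitutively active AKT does to the same genes without a GPS2 knockout. TXNIP was 2.49-fold lower (log2 fold change -1.32, SE 0.14, edgeR adjusted p = 1.16e-06) and ARRDC4 6.72-fold lower (-2.75, SE 0.15, edgeR adjusted p = 1.29e-09). These 2 of 5 genes were called lower, against 8.74% of all tested genes. ARRDC3 was 1.41-fold lower (-0.50, SE 0.067, edgeR adjusted p = 1.88e-05) and ARRDC2 1.32-fold higher (0.41, SE 0.054, edgeR adjusted p = 1.75e-05). Both passed the p threshold without overlap between the groups, yet under the 1.5-fold minimum, so neither was called. Of all tested genes, 30.6% had every myrAKT library below WT and 30.3% every one above. PDK4 had a log2 fold change of -0.20 with a 95% interval from -0.40 to 0.0035 (edgeR adjusted p = 0.0897) and was not called. This interval was not set against the knockout values of PDK4, because those values chose the gene. This comparison shares its WT libraries with those that chose the genes, and the difference between the knockout and myrAKT effects was not tested.

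MK2206-treated knockout pools were compared with the same pools untreated. Without treated WT cells, an effect of the drug on any of these cells cannot be told apart from one tied to the knockout. All 5 genes were called higher in KO1+MK than in KO1, against 3.00% of the tested genes, and all 5 were called higher in KO2+MK than in KO2, against 4.66%. The untreated pools are the libraries in which low TXNIP and PDK4 led to the choice, so the comparison is not independent of it. Of all genes called in KO1+MK against KO1, 60.4% were higher, and 71.0% with library totals in place of TMM factors. PDK4 rose 2.64-fold in KO1 (log2 fold change 1.40, SE 0.14, edgeR adjusted p = 2.92e-06) and 2.19-fold in KO2 (1.13, SE 0.10, edgeR adjusted p = 1.54e-07). TXNIP rose 2.13-fold in KO1 (1.09, SE 0.043, edgeR adjusted p = 6.67e-10) and 2.57-fold in KO2 (1.36, SE 0.063, edgeR adjusted p = 2.31e-10).

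The other arrestins moved in the same direction. ARRDC3 rose 2.07-fold in KO1 and 2.30-fold in KO2 (edgeR adjusted p = 4.21e-09 and 8.53e-09). ARRDC2 rose 1.74-fold and 2.22-fold (edgeR adjusted p = 8.67e-08 and 4.66e-10). ARRDC4 rose least, 1.67-fold in KO1 and 1.63-fold in KO2 (edgeR adjusted p = 9.66e-05 and 3.77e-05). The ARRDC4 call in KO1 was lost when KO1 replicate 1 or KO1 replicate 3 was left out, with log2 fold changes between 0.67 and 0.80 over the 6 omissions. The fifth alpha-arrestin tested, ARRDC1, was not called, with log2 fold changes of -0.20 in KO1 and -0.09 in KO2.

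The size of the MK2206 effect was then compared between the pools. The log2 difference, KO2 minus KO1, was 0.36 for ARRDC2 (95% interval 0.18 to 0.53, edgeR adjusted p = 0.112) and 0.27 for TXNIP (0.097 to 0.45, edgeR adjusted p = 0.338). It was 0.15 for ARRDC3 (-0.08 to 0.38), -0.04 for ARRDC4 (-0.34 to 0.26) and -0.27 for PDK4 (-0.60 to 0.06). None of the 5 genes, and 0.00% of all tested genes, was called for this difference by edgeR, while 1221 of 15587 had an unadjusted p under 0.05 and DESeq2 called 5 genes.

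Treatment left the genes at different places relative to WT. KO1+MK remained below WT for TXNIP (1.73-fold), PDK4 (2.12-fold) and ARRDC4 (1.51-fold), with edgeR adjusted p = 2.23e-06, 2.31e-06 and 0.000275. These 3 of 5 were called lower, against 7.61% of tested genes. The ARRDC4 call was lost without WT replicate 3, KO1+MK replicate 2 or KO1+MK replicate 3. ARRDC3 differed by a log2 fold change of 0.01 with an interval from -0.13 to 0.15, and ARRDC2, at 1.35-fold higher, was under the fold minimum. In KO2+MK, TXNIP (1.76-fold, edgeR adjusted p = 4.14e-07) and ARRDC4 (1.64-fold, edgeR adjusted p = 1.31e-05) were called lower, against 12.6% of tested genes. ARRDC2 was called higher (1.72-fold, edgeR adjusted p = 2.83e-08), against 9.05%. PDK4 was 1.49-fold lower in KO2+MK (edgeR adjusted p = 5.08e-05), just under the fold minimum, and it was called when WT replicate 1 or KO2+MK replicate 3 was left out. ARRDC3 was 1.16-fold higher (edgeR adjusted p = 0.0467) and was not called. Here both genotype and treatment differ from WT, and the effect of MK2206 on WT cells was not analysed here.

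**Figure D3:**
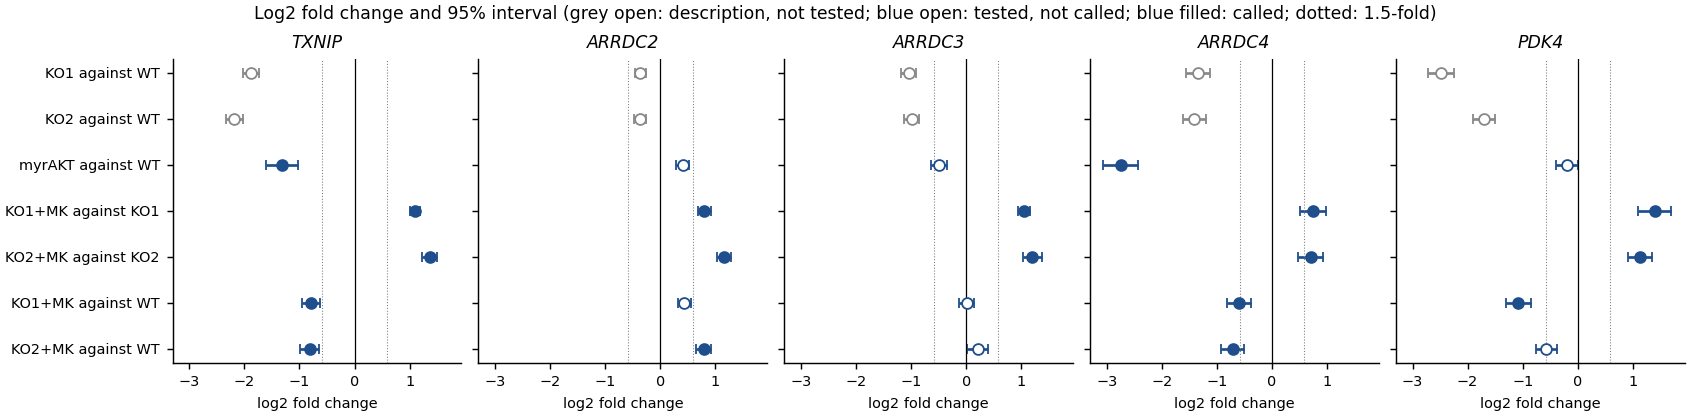
Log2 fold change (horizontal axis) of each gene in 7 comparisons (rows) with 95% intervals; grey open circles are the contrasts that chose the genes and were not tested, blue filled circles were called and blue open circles were tested and not called, and dotted lines mark the 1.5-fold minimum. All 5 genes lie right of 0 after MK2206 in both pools, and in myrAKT the values run from -2.75 for ARRDC4 to 0.41 for ARRDC2.

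The untreated pools differed from each other for PDK4, which was 1.72-fold higher in KO2 than in KO1 (log2 fold change 0.78, SE 0.14, edgeR adjusted p = 0.000189), and 0.757% of tested genes were called higher and 2.75% in either direction. This call was lost without KO1 replicate 2, KO1 replicate 3 or KO2 replicate 1, with log2 fold changes between 0.73 and 0.86. TXNIP was 1.23-fold lower in KO2 (log2 fold change -0.30, edgeR adjusted p = 2.4e-05), under the fold minimum, and the adjusted p was 0.0753 with all 18 libraries in 1 fit. ARRDC2, ARRDC3 and ARRDC4 overlapped between the pools, with intervals that lay within -0.31 and 0.17 on the log2 scale.

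The genes were then set beside 90 others with roles around glucose entry, pyruvate oxidation and their control, of which 80 were tested. Of these 80, 0 were called higher and 9 lower in KO1 (11.2% called, against 13.8% of all tested genes), and 3 higher and 12 lower in KO2 (18.8% against 17.0%). In myrAKT 6 were higher and 13 lower (23.8% against 13.9%). With MK2206, 7 were higher and 5 lower in KO1 (15.0% against 4.96%) and 9 higher and 2 lower in KO2 (13.8% against 7.11%). The lists were chosen with earlier results of these data known, so these shares are a description and show no enrichment. The higher calls in myrAKT and with MK2206 include UCP3, whose direction was fixed by the filter on low counts. The calls described next are those of these 5 comparisons, KO1, KO2 and myrAKT against WT and each treated pool against the same pool untreated, unless another is named.

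Among the glucose-sensing factors, MLXIP (MondoA) RNA was not called in any of these 5 comparisons, with log2 fold changes of 0.12 in both pools, 0.03 in myrAKT, and 0.15 and 0.21 with MK2206. MLX had log2 fold changes of -0.40 and -0.46 with MK2206, short of a call, and was called lower in KO2+MK than in WT (-0.63). MLXIPL, which encodes ChREBP, was at 3.49 CPM in WT and fell in both pools (log2 fold change -1.16, edgeR adjusted p = 5.54e-06, and -1.15, edgeR adjusted p = 1.25e-05). Between treated and untreated pools it was not called, with 0.10 and 0.52, and it was called lower in KO1+MK than in WT (-1.06). The group means of MLXIP lay between 138.0 and 174.2 CPM over the 6 conditions, while those of TXNIP lay between 43.0 and 195.3 CPM.

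Of the 13 glucose transporter genes, 9 were tested. SLC2A1, which encodes GLUT1, the transporter that TXNIP acts on, was not called: its log2 fold change was 0.08 in KO1, 0.28 in KO2, 0.21 in myrAKT, and -0.39 and -0.45 with MK2206. SLC2A3 (GLUT3) rose with MK2206 in both pools (log2 fold change 0.79, edgeR adjusted p = 4.25e-08, and 0.87, edgeR adjusted p = 2.41e-09). SLC2A10 and SLC2A12 fell in both pools (SLC2A10 -1.40 and -1.61, SLC2A12 -1.14 and -1.09 on the log2 scale). SLC2A4, the insulin-responsive GLUT4, fell in myrAKT (-2.08), from 4.49 to 1.05 CPM. Of 3 hexokinase genes tested, HK2 fell in myrAKT (log2 fold change -0.93) and HKDC1 fell with MK2206 in both pools (-0.72 and -0.63).

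TXN, the thioredoxin that TXNIP binds, was not called, with log2 fold changes of 0.31 and 0.29 in the pools, -0.13 in myrAKT, and -0.21 and -0.19 with MK2206. In the 5 genes of the thioredoxin system the calls in these 5 comparisons were TXNRD2, higher in KO2 (0.66), and TXNRD3, lower in myrAKT (-0.82). Among the ubiquitin ligases that alpha-arrestins recruit, 9 of 9 were tested, and NEDD4L fell in myrAKT (-0.74) and with MK2206 in KO1 (-0.63). WWP2 rose in myrAKT (0.65) and HECW1 fell in KO2 (-0.75). ITGB4, which encodes the integrin that ARRDC3 acts on, fell in KO1 (-1.73) and rose in myrAKT (1.89). In KO2 it was not called (-0.46), and it was called higher in KO2 than in KO1 (1.27).

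None of the other kinases of the pyruvate dehydrogenase complex was called in these 5 comparisons. Log2 fold changes ran from -0.31 to 0.32 for PDK1, from -0.17 to 0.40 for PDK2 and from -0.49 to 0.26 for PDK3. PDPR, the regulatory subunit of the phosphatase that opposes these kinases, rose in KO2 (0.66) and in myrAKT (0.64). Among 7 genes of the complex and the pyruvate carrier, DLAT and PDHX fell in myrAKT (-1.05 and -0.63), and none was called in the pools or with MK2206.

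PDK4 is controlled by nuclear receptors, their coactivators and FOXO factors, and all 10 listed regulators were tested. FOXO4 and PPARA fell in both pools (FOXO4 -0.91 and -0.75, PPARA -0.78 and -0.72), and ESRRA fell in KO2 (-0.63). With MK2206, FOXO4 rose in KO1 (0.65) and FOXO1 in KO2 (0.71), and PPARG fell in both pools (-0.62 and -0.64). In myrAKT, where PDK4 was not called, ESRRA and PPARG fell (-0.95 and -0.69). Among 11 tested genes of fatty acid use, UCP3 had log2 fold changes of 1.51 and 1.53 with MK2206 and of 1.16 in myrAKT. It had group means of 0.71 CPM in WT, 0.725 in KO1 and 0.727 in KO2 and passed the filter on low counts only through the myrAKT and treated libraries, so its calls, counted above, had to be of this direction and are given as values. CPT1A, the entry step of fatty acid oxidation, fell in KO2 (-0.64) and in myrAKT (-1.13), and CPT1B, its muscle form, fell in KO1 (-1.06). ANGPTL4 rose (0.81) and UCP2 fell (-0.59) in myrAKT, and PLIN2 fell with MK2206 in KO1 (-0.61). Of 7 tested AMPK genes, PRKAB2 rose with MK2206 in both pools (0.66 and 0.63).

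Of 7 tested genes of the glucocorticoid response, 2 were called lower in KO1 (against 8.76% of all tested genes), and 4 were called lower and 1 higher in KO2 (against 11.1% and 5.84%). With MK2206, 3 were called higher in KO1 (against 3.00%) and 5 in KO2 (against 4.66%). This list too was chosen with earlier results of these data known, so its counts are a description. KLF9, a transcription factor, had log2 fold changes of -2.18 in KO1 and -2.52 in KO2, and of 1.27 and 1.32 with MK2206. For TSC22D3, a leucine zipper protein also known as GILZ, they were -1.24 and -1.38 in the pools and 0.79 and 1.03 with MK2206. PER1, a clock gene, rose with MK2206 (0.79 and 1.15) and was not called in the untreated pools (-0.58 and -0.55). In KO2, NFKBIA and DUSP1 also fell (-1.20 and -0.72) and SGK1 rose (0.59), and with MK2206 in KO2, DUSP1 and SGK1 rose (0.80 and 0.67). In myrAKT, KLF9, TSC22D3 and PER1 were not called, whereas DUSP1, NFKBIA and FKBP5 fell and SGK1 rose (-1.77, -0.86, -0.60 and 0.75).

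Set against WT, the treated pools had 4 of the 80 listed genes called higher and 14 lower in KO1+MK (22.5% called, against 12.6% of all tested genes) and 6 higher and 16 lower in KO2+MK (27.5% against 21.6%). The higher calls of both include UCP3, which passed the filter only through the myrAKT and treated libraries, so its direction was fixed. These shares too come from lists chosen with earlier results known and are a description. Of the glucose transporters, SLC2A10, SLC2A4 and SLC2A12 were lower in both (SLC2A10 -1.40 and -1.25, SLC2A4 -0.86 and -1.36, SLC2A12 -0.80 and -0.75 on the log2 scale). SLC2A8, another transporter, went the other way and was called higher in KO2+MK. The ligases SMURF2 (-0.86 and -0.85), HECW1 (-0.69 and -0.71) and NEDD4L (-0.59 and -0.68) were lower in both, as was ITGB4 (-1.78 and -0.80). PDPR was higher in both (0.61 and 0.84), and TXNRD3 was lower in KO2+MK (-0.64). Among the regulators of PDK4, PPARG (-0.80 and -0.74) and PPARGC1A, which encodes the coactivator PGC-1alpha (-0.65 and -0.84), were lower in both, RXRA was lower in KO1+MK (-0.62) and ESRRA in KO2+MK (-0.71). UCP2 was lower in both (-0.71 and -0.68), CPT1A was lower in KO2+MK (-0.72), and PRKAB1, an AMPK subunit, was higher in both (0.59 and 0.73). In the glucocorticoid response SGK1 was higher in both (0.98 and 1.27) and KLF9 was lower in both (-0.91 and -1.21), while NFKBIA was lower in KO2+MK (-0.66). PER1 was called higher in KO2+MK.

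Some calls of listed genes rested on single libraries. In myrAKT the ANGPTL4 call was lost whichever of the 6 libraries was left out (0.61 to 0.91). The CPT1B call in KO1 was lost without any 1 of the 3 KO1 libraries (-1.13 to -0.998). With MK2206 in KO1, calls were lost for HKDC1 without any KO1 library or KO1+MK replicate 1 (-0.76 to -0.51), for FOXO4 without KO1 replicate 1, KO1 replicate 3 or KO1+MK replicate 3 (0.57 to 0.65), for PLIN2 and PPARG without KO1+MK replicate 1 (-0.54 and -0.57) and for TSC22D3 without KO1 replicate 3 (0.76). With MK2206 in KO2 they were lost for HKDC1 without KO2+MK replicate 2 (-0.58) and for PRKAB2 without KO2+MK replicate 3 (0.56). Between KO1+MK and WT, SLC2A4 was lost without any library except WT replicate 3 (-0.93 to -0.74), RXRA without WT replicate 2, WT replicate 3 or KO1+MK replicate 1 (-0.58 to -0.56), MLXIPL without WT replicate 3 or KO1+MK replicate 2 (-1.07 and -0.95), PRKAB1 without WT replicate 1 or KO1+MK replicate 2 (0.52 and 0.54), NEDD4L without WT replicate 1 or KO1+MK replicate 1 (-0.57 and -0.56) and PDPR without WT replicate 1 (0.56). With other scaling factors, calls were also lost for NEDD4L, PLIN2 and PPARG with MK2206 in KO1 (library totals, -0.57, -0.56 and -0.57), and for PDPR (0.56) and PRKAB1 (0.54) in KO1+MK against WT (upper-quartile factors).

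**Figure D4:**
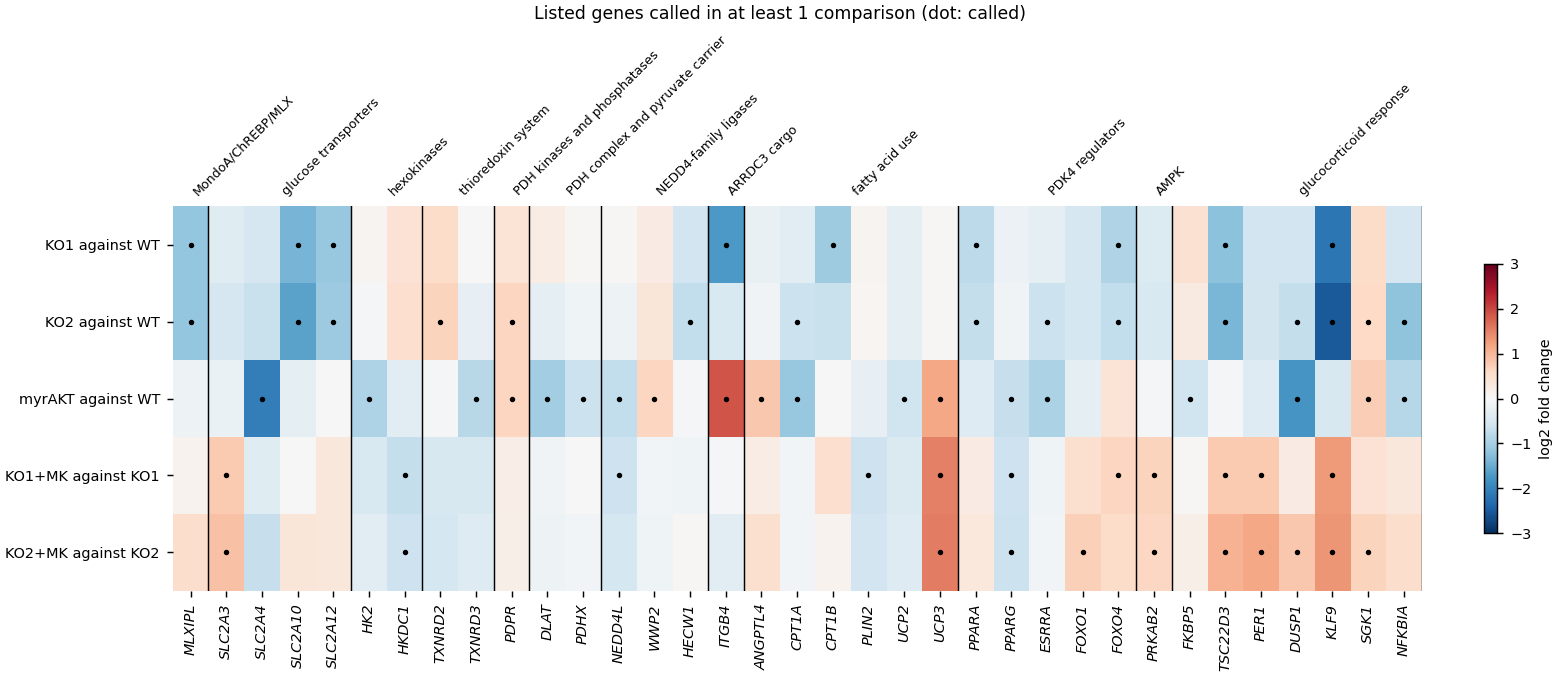
Log2 fold change (colour) of 35 listed genes called in at least 1 of 5 comparisons (rows), ordered by list; a black dot marks a call. KLF9 and TSC22D3 are blue in the pools and red after MK2206, and the myrAKT row is led by SLC2A4, DUSP1 and ITGB4.

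The paired layout of the TXNIP promoter was present in 20 genes, of which 15 were tested. Of the 14 tested genes other than TXNIP, none was called in KO1 or KO2 against WT (against 13.8% and 17.0% of all tested genes) or after MK2206 in KO1 or KO2 (against 4.96% and 7.11%). In myrAKT 1 of the 14 was called (against 13.9%), P4HA1, a prolyl hydroxylase of collagen, which was higher (log2 fold change 0.59). P4HA1 was chosen after its values were seen. With 14 genes, these counts show nothing particular to the layout.

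Likeness of pattern was measured as the Pearson correlation of log2 CPM over the 18 libraries, which share groups and differ in depth, and is given as a description. The genes closest to TXNIP were TFCP2L1 (r = 0.964), SH3D19 (0.959), TNFRSF10B (0.958), YPEL3 (0.956) and PARP11 (0.956), and 3 of these 5 were also among the closest 5 by Spearman correlation. Closest to PDK4 were ATP10D (0.961), SIX4 (0.960), CLDND1 (0.960), ZNF609 (0.956) and NOL4L (0.953), of which 1 was among the closest 5 by Spearman correlation. Within the set, TXNIP was closest to ARRDC3 (0.86) and PDK4 (0.75). ARRDC2 and ARRDC4, the 2 arrestins that differed most in myrAKT, had r = 0.05.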

How the data were processed

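RNA was measured by ribosomal RNA-depleted, paired-end sequencing of 18 libraries in 2 runs, and which library was in which run is not given in the sources used here. The authors' methods and processing notes name FastQC, Trim Galore, HISAT2 with hg38, featureCounts and MultiQC. Their versions, the annotation release and the strand setting of counting are not given in the sources used here, so reads of a gene and its antisense neighbour cannot be told apart. The deposited values are raw counts per Ensembl gene. Symbols, exon lengths and positions were taken from GENCODE release 44, which gave a symbol to 41445 of 57448 genes.

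Samples were grouped by their labels. TMM factors were computed once over the 18 libraries with edgeR 4.0.16 (R 4.3.3), and genes reaching 1 CPM in 3 or more libraries were kept. Each pair of groups was fitted separately with the edgeR quasi-likelihood test, and the effect of MK2206 was compared between pools in 1 fit of 4 groups. Benjamini-Hochberg adjustment covered the 15587 genes, and a call needed an adjusted p no higher than 0.001 with a 1.5-fold or larger difference. SE is the log2 fold change divided by the square root of its F value, and intervals are 95%, from the t quantile at the degrees of freedom of the fit. The fits were tested on simulated data. Comparisons of KO1, KO2 and myrAKT with WT share the WT libraries. Replicates of a group differed by more than sampling noise (mean chi-square per gene of at least 2.26).

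The 5 genes and the 13 gene lists were chosen with earlier results of these data known. From each list and comparison up to 3 called genes with the largest fold change were named, and MLXIP, SLC2A1, TXN, PDK1, PDK2 and PDK3 always. A single item of the lists is not reported here. A few other called list members, MLX, ARRDC1 and uncalled values of named genes are given beside them. Motifs were searched on both strands of RefSeq windows of 300 bases (250 before and 50 after each start). The alternatives tried were DESeq2 1.42.0, other scaling factors and filters, other call rules, a replicate block, all 18 libraries in 1 fit, joined pools and omission of single libraries.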

Additional observations from a re-analysis of the deposited data

Results flagged for a closer look

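Results that differed between the 2 knockout pools were singled out by the test of the difference itself. For the 5 genes and for the MK2206 effect an adjusted p of at most 0.05 was enough, and a listed gene that differed between the untreated pools had to be called. PDK4 was higher in KO2 than in KO1 by 0.78 on the log2 scale (edgeR adjusted p = 0.000189), with group means of 3.25 and 1.89 CPM. TXNIP was lower in KO2 by a log2 fold change of -0.30 (edgeR adjusted p = 2.4e-05), with means of 43.0 and 53.1 CPM. With all 18 libraries in 1 fit the adjusted p of TXNIP was 0.0753, and under the other alternatives, single omissions included, it did not exceed 0.000145. The MK2206 effect on DUSP1, a listed gene of the glucocorticoid response, was larger in KO2 than in KO1 by 0.56 on the log2 scale (edgeR adjusted p = 7.71e-05), with log2 fold changes of 0.80 and 0.24, and was under the 1.5-fold minimum. Its adjusted p was 0.0272 with all 18 libraries in 1 fit, and it was called without KO1 replicate 1 (0.59). Of the 80 listed genes tested, 2 were called between the untreated pools (2.50%, against 2.75% of all tested genes). ITGB4 was higher in KO2 by 1.27 on the log2 scale (edgeR adjusted p = 6.02e-12), with means of 55.5 and 23.1 CPM. NFKBIA was lower in KO2 by a log2 fold change of -0.69 (edgeR adjusted p = 1.8e-09), with means of 60.2 and 96.8 CPM. The pools come from different sgRNA sets and were selected separately, and these parts cannot be told apart.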

How the results depend on the processing

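The log2 fold changes of TXNIP kept their direction and their side of the call rule in every alternative fit of their comparison, single omissions included, and so did every call of the 5 genes after MK2206 except that of ARRDC4 in KO1. In KO2 against KO1 TXNIP was under the fold minimum and would be called without it, and its adjusted p crossed 0.001 and 0.05 with all 18 libraries in 1 fit (0.0753). Values near 0 changed sign without a call. ARRDC2 in KO2 against KO1 was 0.011 with DESeq2, 0.0037 with its size factors, 0.017 with upper-quartile factors and 0.021 with library totals. ARRDC3 in KO1+MK against WT was -0.0097 with DESeq2 size factors and -0.035 with upper-quartile factors. PDK4 in KO2+MK against WT was called with upper-quartile factors (-0.62), and with both pools as 1 group PDK4 differed from WT by -2.04. Among the always named genes, MLXIP in KO2 against KO1 was -0.00040 with 10 counts in every library, and PDK2 was 0.046 with the pools joined. With the pool as a factor, the MK2206 effect was -0.15 for PDK1 and 0.13 for PDK3. PDK3 in KO2+MK against KO2 was 0.018 with DESeq2, 0.0097 with its size factors and 0.021 with library totals. TXN was -0.012 with upper-quartile factors, -0.018 with library totals and -0.0046 without the filter for the pool difference in MK2206 effect, and 0.00019 and 0.0038 with the first 2 in KO2 against KO1. In these cases the cause was not tested.

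With single libraries left out, ranges were -0.42 to -0.34 for ARRDC2 in KO2 against WT and -0.030 to 0.019 in KO2 against KO1, -0.11 to 0.069 for ARRDC3 in KO1+MK against WT, and for ARRDC4 0.67 to 0.80 in KO1+MK against KO1, -0.67 to -0.53 in KO1+MK against WT and -0.10 to 0.031 for the pool difference in MK2206 effect. For PDK4 they were 0.73 to 0.86 in KO2 against KO1 and -0.69 to -0.53 in KO2+MK against WT. MLXIP ran from -0.022 to 0.023 in KO2 against KO1, PDK1 from -0.095 to 0.096 in KO1+MK against KO1, and PDK2 from -0.15 to 0.013 in KO1 against WT, -0.15 to 0.0097 for the pool difference and -0.14 to 0.042 in KO2+MK against WT. PDK3 ran from -0.0013 to 0.12 in myrAKT and -0.041 to 0.023 in KO2+MK against KO2, and TXN from -0.033 to 0.053 for the pool difference and -0.062 to 0.024 in KO2 against KO1. Genes called higher for the pool difference numbered 0 to 2.

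Counts of called genes over the whole table moved mainly with the call rule. Without a minimum fold change, higher and lower calls were 3419 and 3121 in KO1, 3385 and 3444 in KO2, 2035 and 2610 in myrAKT, 1515 and 1444 in KO1+MK against KO1, 1921 and 1577 in KO2+MK against KO2, 792 and 1188 in KO2 against KO1, 2605 and 2507 in KO1+MK against WT, and 3505 and 3498 in KO2+MK against WT, with 2 higher for the pool difference. At an adjusted p of 0.05 with the fold minimum they were 1217 higher in myrAKT, 814 and 505 in KO1+MK against KO1, 659 lower in KO2+MK against KO2, 302 higher in KO2 against KO1, and 4 and 3 for the pool difference. That difference gave 3 and 2 with DESeq2 and 14 and 16 without the filter, which raised KO2 against KO1 to 218 higher. With the pool as a factor, 761 genes were higher after MK2206. The replicate block moved no count by over 1.5 times, for example 755 higher in KO1 against WT. Correlations of same-numbered deviations ran from -0.24 to 0.21 and in no comparison were all pairs above 0.1, so the numbers were not taken to pair samples. Among the 5 genes, depth limits ARRDC4 in myrAKT (38 to 61 counts) and PDK4 in KO1 (65 to 80 counts) most, and among the listed genes named, UCP3 in KO2 (14 to 40 counts), SLC2A10 in KO1+MK (26 to 43 counts) and SLC2A4 in myrAKT (33 to 42 counts) also rest on few counts.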
